A study of Mus musculus with 2 samples.

Results

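Promoter flank peaks are regions of open chromatin that lie just outside the promoter itself. In the deposited table of peaks from mouse heart, they are the peaks that the authors' annotation places 1 to 2 kb or 2 to 3 kb from the start of the transcript they are assigned to. There were 5110 such peaks among 58076 in all (8.8%), of which 2750 lay at 1 to 2 kb and 2360 at 2 to 3 kb. By the sign of the deposited distance, 2385 lay upstream and 2725 downstream of the start. The peaks came from ATAC-seq, in which the transposase Tn5 cuts and tags accessible DNA in nuclei, of heart tissue from mice 15 days of age on normal chow. The control library was labelled Ythdc1flox/flox, so it carried floxed alleles of Ythdc1, the gene of a nuclear reader of N6-methyladenosine (m6A) in RNA. The other library was labelled Ythdc1 CKO, a cardiac-specific knockout of the same gene. The sources used here do not give the driver of the deletion, the number of animals or any pooling. The series asks how the deletion affects accessibility in the heart.

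A promoter peak usually marks the nucleosome-depleted region at a transcript start, where the transcription machinery assembles. Accessible sites beside it can be proximal enhancers, starts of other transcripts, or sites bound by tissue-specific factors. In heart muscle, GATA, MEF2, TEAD and SRF factors are known to bind such elements near genes of the contractile apparatus and of the stress response.

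Each group had 1 library, so no difference below has a replicate check and no p-value was computed. Counts in peaks came to 6755590 for the control library and 6466537 for the knockout library. Flank peaks took 6.55% and 6.7% of them, respectively. The median flank peak was 312 bp wide and had 8.88 CPM (counts scaled to the library's total in peaks, averaged over the libraries), against 576 bp and 21.1 CPM for peaks within 1 kb of a start. Log2 ratios compare the knockout with the control on the CPM scale, after 0.5 was added to each count. Peaks are counted as higher or lower from 2-fold upwards, which is a set size and not a test. Said of single named peaks whose values are given, higher or lower states the direction alone. Where a pair of counts is given, the control comes first. All intervals are 95% intervals for counting error or, for shares and medians of peaks, treat peaks as independent draws. In bulk tissue, a change in the number of cells of a type and a change in accessibility per cell cannot be told apart. For the labelled tissue, flank peaks lay at 13 of 27 sarcomere genes, 8 of 19 endothelial genes and 0 of 12 epithelial genes, of which 8 had a matched symbol in the table.

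Sequence was read for the few flank peaks that cover a RefSeq transcript start, since these show what such a peak can hold. Of 4996 flank peaks on the chromosomes with promoter windows, 42 (0.841%, exact interval 0.607 to 1.13%) covered a RefSeq start, against 51.7% of peaks within 1 kb, 0.441% of intron peaks and 1.48% of distal intergenic peaks. The sequences run 5′ to 3′ on the strand of the gene (RefSeq, GRCm38.p6), and give the bases of the promoter window that lie before the start and inside the peak. Capitals mark AGATAA, the core of a GATA site, and GGAATG, the core of a TEAD site, on either strand. They also mark GGGCGG, a GC box bound by Sp factors. The AP-1 site TGACTCA was searched for as well and is not in these stretches. Cpeb4 and Ppp1r10 are shown as the covered starts with the most counts in their peaks, Cyth1 as one that was lower, and Pim1 and Nedd4 as coding genes near the top of the order of ratios. The Nppb promoter is shown because its flank peak differed while the interval of the promoter peak's ratio included equality.
Cpeb4 start in a flank peak, chr11:31870690-31870939, plus strand: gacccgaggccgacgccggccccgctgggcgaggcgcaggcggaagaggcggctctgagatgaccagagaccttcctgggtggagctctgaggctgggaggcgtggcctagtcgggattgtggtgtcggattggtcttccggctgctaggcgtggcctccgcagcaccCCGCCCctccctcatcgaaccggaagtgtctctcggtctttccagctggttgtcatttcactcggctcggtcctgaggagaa
Ppp1r10 start in a flank peak, chr17:35919022-35919271, plus strand: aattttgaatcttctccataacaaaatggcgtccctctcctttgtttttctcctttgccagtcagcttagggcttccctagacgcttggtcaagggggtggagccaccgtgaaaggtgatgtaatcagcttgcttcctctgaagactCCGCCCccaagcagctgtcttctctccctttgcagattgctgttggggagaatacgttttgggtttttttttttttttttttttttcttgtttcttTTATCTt
Cyth1 start in a flank peak, chr11:118202731-118202892, minus strand: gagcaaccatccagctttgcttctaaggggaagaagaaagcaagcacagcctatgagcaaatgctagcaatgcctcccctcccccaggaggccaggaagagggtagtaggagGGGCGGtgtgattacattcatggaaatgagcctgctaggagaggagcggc
Pim1 start in a flank peak, chr17:29492983-29493084, plus strand: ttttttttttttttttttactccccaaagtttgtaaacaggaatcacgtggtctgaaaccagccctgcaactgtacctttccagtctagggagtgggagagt
Nedd4 start in a flank peak, chr9:72693262-72693297, plus strand: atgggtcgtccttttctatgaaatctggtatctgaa
Nppb promoter, chr4:147985650-147985899, plus strand: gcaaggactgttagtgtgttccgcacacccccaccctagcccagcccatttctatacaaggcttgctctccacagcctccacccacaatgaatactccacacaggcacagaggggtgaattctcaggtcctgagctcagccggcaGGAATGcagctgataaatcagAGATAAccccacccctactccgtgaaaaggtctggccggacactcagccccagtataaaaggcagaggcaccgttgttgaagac

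Among all 32817 windows of 300 bases, AGATAA was found in 11.2%, GGAATG in 14.7%, GGGCGG in 35.6% and TGACTCA in 5.2%. Among the 45 windows whose start lay in a flank peak, the shares were 6.67%, 13.3%, 22.2% and 6.67%. Their median GC content was 53.7%, against 52.7% over all windows. The printed stretch of Cpeb4 had 66.0% GC and 21 CpG sites, that of Ppp1r10 43.6% and 5, and that of Nppb 54.8% and 5. The Nppb stretch held 1 GATA and 1 TEAD match, and that of Ppp1r10 1 GATA match and 1 GC box. These matches describe the letters alone.

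The flank peak over the start of Cpeb4, a regulator of translation through poly(A) tails, held 461 control and 437 knockout counts (ratio 0.990, interval 0.867 to 1.13). The peak over the start of Ppp1r10, a nuclear regulator of protein phosphatase 1, held 405 and 463 (1.19, 1.04 to 1.37). Of these strongest examples, the interval of Cpeb4 included equality and that of Ppp1r10 lay above it. The peak over the Cyth1 start, an exchange factor for ARF GTPases, held 270 and 173 counts (0.669, 0.550 to 0.813). The peaks over the starts of Pim1, a serine/threonine kinase, and Nedd4, a ubiquitin ligase, were higher in the knockout library, from 64 to 117 (1.91, 1.4 to 2.63) and from 69 to 125 (1.89, 1.4 to 2.58). Of the 42 peaks over a RefSeq start, 0 were at least 2-fold higher and 1 was at least 2-fold lower, against 7.14% and 9.22% of all flank peaks, and 26 had a log2 ratio above 0.

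Across all flank peaks, 365 (7.14%) had at least 2-fold more signal in the knockout library, where the background over all peaks was 6.09%. At least 2-fold less was seen in 471 (9.22%), against a background of 8.96%. Both shares were near the background. The median log2 ratio was -0.02 (-0.05 to 0.00), with an SD of 0.73 over peaks. The median counting error of a single flank peak was 0.27 on the log2 scale. On the authors' RPM scale, which shifts log2 ratios by about -0.17 (slightly more or less for peaks with few counts), the counts were 227 higher and 649 lower, so that higher peaks made up 25.9% of those past 2-fold in place of 43.7%. Directions below are therefore relative to the total counts in peaks.

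Flank peaks stood between promoter peaks and distal sites. Within 1 kb of a start, 2.7% of peaks passed 2-fold upwards and 2.87% downwards, while in introns the shares were 7.66% and 12.6% and in distal intergenic regions 8.16% and 12.8%. Weak peaks carry more counting error, so the same shares were taken among peaks with a mean of at least 9.41 CPM, the median of all peaks. There, 79 of 2373 flank peaks (3.33%, exact interval 2.64 to 4.13%) passed 2-fold upwards, against a background of 2.13%. A further 78 (3.29%, 2.61 to 4.09%) were at least 2-fold lower, against a background of 2.26%. Peaks within 1 kb had 0.779% (0.643 to 0.934%) and 0.67% (0.545 to 0.816%) in that range of signal. Their median signal there was still higher, 29.0 CPM against 15.6 CPM for flank peaks, so this contrast is not free of signal. Introns had 3.75% (3.29 to 4.26%) and 4.02% (3.54 to 4.54%), and distal intergenic peaks 3.29% (2.79 to 3.84%) and 4.18% (3.62 to 4.8%). In either direction the flank interval lay above that of promoter peaks and overlapped those of intron and distal peaks. Among the 20% of all peaks with the most signal, 8 of 574 flank peaks (1.39%) passed 2-fold either way, against 0.272% of promoter peaks, 3.07% of intron peaks and 3.76% of distal peaks. In the next 20%, flank and promoter peaks had closer median signals, 15.8 and 17.1 CPM. There, 7.32% of flank peaks passed 2-fold either way, against 2.39% of promoter, 7.4% of intron and 6.47% of distal peaks.

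**Figure D1:**
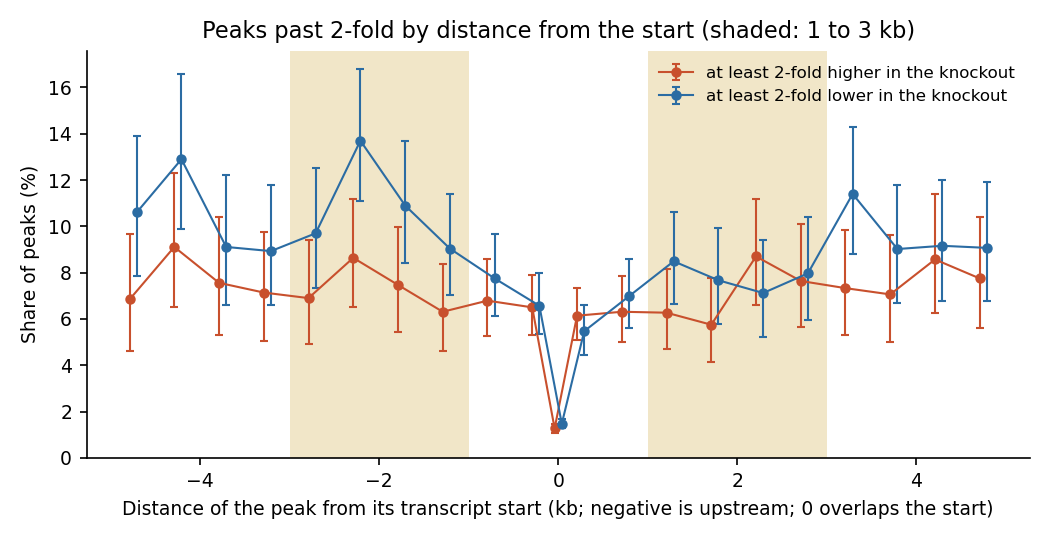
Share of peaks (y axis, percent) at least 2-fold higher or lower in the knockout, by distance from the assigned start (x axis, kb), in bins of 500 bp with exact 95% intervals. Peaks that overlap the start sit at 1.27% and 1.47%, and the shares are already at 6.5% and 6.57% in the first 500 bp upstream.

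The shares changed most next to the start, and less at the 1 kb boundary. Peaks overlapping a start had 2.74% past 2-fold either way, and peaks 1 to 500 bp away had 13.1% upstream and 11.6% downstream. Over the start the median signal was 28.9 CPM, against 8.83 and 9.1 CPM in these bins, and its part in this difference was not tested. In the 500 bp just inside the 1 kb boundary the share was 13.8%, and in the 500 bp just outside it 15.0%. At the outer boundary of 3 kb the shares were 16.1% just inside and 17.4% just outside.

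Upstream peaks had more lower members than downstream peaks. Of 2385 upstream peaks, 174 (7.3%) were at least 2-fold higher and 257 (10.8%, 9.56 to 12.1%) lower. Of 2725 downstream peaks, 191 (7.01%) were higher and 214 (7.85%, 6.87 to 8.93%) lower. The side made less difference among stronger peaks, with 36 higher and 40 lower of 1064 upstream, and 43 and 38 of 1309 downstream. There the shares of lower peaks were 3.76% (2.7 to 5.08%) upstream and 2.9% (2.06 to 3.96%) downstream, with overlapping intervals. The median log2 ratios of all upstream and downstream peaks were -0.05 (-0.09 to -0.01) and -0.01 (-0.05 to 0.02).

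Whether a peak was called in 1 library or in both went with nearly all of the 2-fold differences. In the authors' table, 2337 flank peaks were called in both libraries, 1782 only in the control library and 991 only in the knockout library. Of the 365 higher peaks, 340 were called only in the knockout library and 24 in both. Of the 471 lower peaks, 446 were called only in the control library and 25 in both. A peak called in 1 library has been selected for its count there. Flank peaks of the upper part of signal were called in both libraries in 73.9% of cases, against 92.4% within 1 kb, 81.7% in introns and 87.5% of distal intergenic peaks. Beside a promoter peak of any gene, within 3 kb, the share was 64.5% of 926 (61.3 to 67.6%), and elsewhere it was 80% of 1447 (77.8 to 82.0%). The shares past 2-fold in these groups were 6.16% (4.7 to 7.9%) and 6.91% (5.66 to 8.34%), with overlapping intervals. Without a limit on signal, calling in both libraries was about as frequent beside a promoter peak (47.5% of 1408, 44.9 to 50.2%) as elsewhere (45.1% of 3702, 43.4 to 46.7%). There, 10.3% (8.76 to 12%) of the flank peaks beside a promoter peak passed 2-fold and 18.7% (17.4 to 20%) of the others, with median signals of 12.1 and 7.8 CPM. These pooled shares compare groups of unlike signal. Beside a promoter peak, 669 of all 1408 and 597 of the upper 926 were called in both libraries. Elsewhere the counts were 1668 of 3702 and 1157 of 1447. Among the peaks left below the limit on signal, calling in both was therefore less frequent beside a promoter peak as well.

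**Figure D2:**
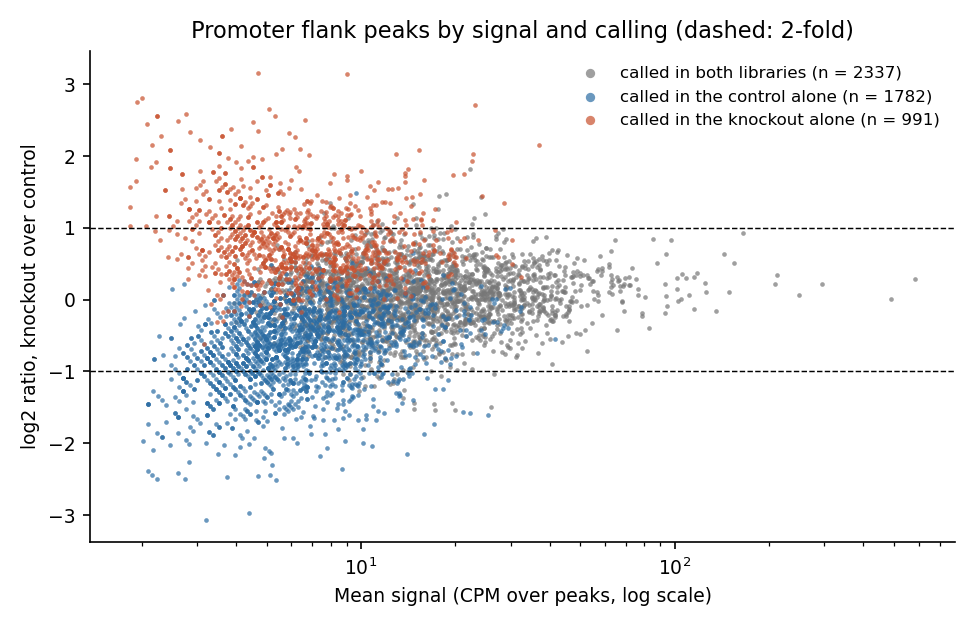
Log2 ratio of knockout over control (y axis) against mean CPM (x axis, log scale) for each of the 5110 flank peaks, coloured by the library in which it was called, with dashed lines at 2-fold. Points beyond the lines are mostly peaks called in 1 library, 340 of the 365 above and 446 of the 471 below.

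The highest ratio among the stronger flank peaks (at least 8.88 CPM) belonged to D730003K21Rik, a predicted transcript, with 12 and 105 counts (ratio 9.14, 5.02 to 18.3). Its strongest peak within 1 kb held 33 and 53. The next was a peak on chromosome 4 (148005736 to 148006213) inside the chloride channel gene Clcn6, beyond the end of Nppa, the atrial natriuretic peptide gene, with 41 and 260 counts (6.62, 4.75 to 9.45). The peak within 1 kb of the same identifier differed about as much, with 168 and 1067. The third lay 632 bp beyond the RefSeq end of Ccn2, which encodes the matricellular protein connective tissue growth factor. This peak (chromosome 10, 24599315 to 24600024) is assigned to an identifier with no symbol match, ENSMUSG00000087400, and is upstream of its start by 2207 bp. It held 91 and 390 counts (ratio 4.48, 3.56 to 5.69), and was called only in the knockout library. The promoter peak of Ccn2 itself held 420 and 473 (1.18, 1.03 to 1.34), and the only other peak within 25 kb of the gene held 26 and 39. These loci fall outside the rule for named genes, so they were chosen after seeing their values.

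By that rule, which takes genes with a matched symbol that are not predicted genes, the highest flank peak was that of Fam227b, with 39 and 160 counts (ratio 4.29, 3.0 to 6.25). Here and below, a gene's promoter peak is its strongest peak within 1 kb of any of its annotated starts. It need not lie near the flank peak, even where its counts are given beside those of the flank peak. Next came Pdlim2, which encodes a PDZ and LIM domain protein, with 34 and 135 (4.15, 2.83 to 6.23). The Pdlim2 promoter peak, more than 3 kb from that flank peak, held 114 and 117. That flank peak lies 917 bp from the RefSeq span of the neighbouring gene Sorbs3, an adaptor of cell adhesions. Acacb, the acetyl-CoA carboxylase whose product malonyl-CoA restrains mitochondrial fatty acid uptake, had a flank peak with 63 and 232 counts (3.85, 2.90 to 5.17), and its strongest promoter peak held 435 and 565 (1.36, 1.20 to 1.54). At Smad6, an inhibitory Smad of BMP signalling, the flank peak held 66 and 213 (3.37, 2.55 to 4.51) and the promoter peak 593 and 817 (1.44, 1.29 to 1.6). At Sulf2, an extracellular sulfatase of heparan sulfate, they held 28 and 90 against 102 and 98. Snx29 and Rasl11b also had flank ratios above 3, 3.52 (2.32 to 5.48) and 3.33 (2.35 to 4.80), beside promoter ratios of 1.09 and 1.12. Fhad1os2, an antisense RNA gene, was the exception, with 42 and 138 counts in its flank peak and 25 and 146 in its promoter peak, which differed more. The remaining members of the 10 highest were Fkbp5, described below, and Scarletltr.

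The lowest named flank peak was that of Cux2, a homeobox transcription factor gene, with 155 and 33 counts (ratio 0.222, 0.148 to 0.326). The other Cux2 flank peaks went the same way, with 226 against 72 and 49 against 29, and the promoter peak held 109 and 69. Icmt, the methyltransferase that completes the processing of prenylated proteins, had 118 and 27 in a peak 2407 bp upstream (0.239, 0.151 to 0.366), while its promoter peak held 551 and 534 (1.01, 0.897 to 1.14). Bag2, a co-chaperone of Hsp70, had 169 and 44 (0.272, 0.191 to 0.381) beside a promoter peak of 179 and 134. At Plekhm2, an adaptor between lysosomes and kinesin, the values were 107 and 29 (0.283, 0.181 to 0.430) beside 340 and 220. Gpt2, a mitochondrial alanine aminotransferase, had 106 and 33 (0.325, 0.213 to 0.485) beside 341 and 238. Mir133a-1, the locus of a muscle microRNA, had 258 and 81 (0.328, 0.252 to 0.423), and its promoter peak was lower as well, with 170 and 86 (0.528, 0.403 to 0.689). Necab3 (178 and 51), Gpr137 (101 and 30), Dscam (93 and 29) and Mindy4b-ps (90 and 29) completed the 10. All 10 of these peaks were called only in the control library, and all of the 10 highest only in the knockout library.

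**Figure D3:**
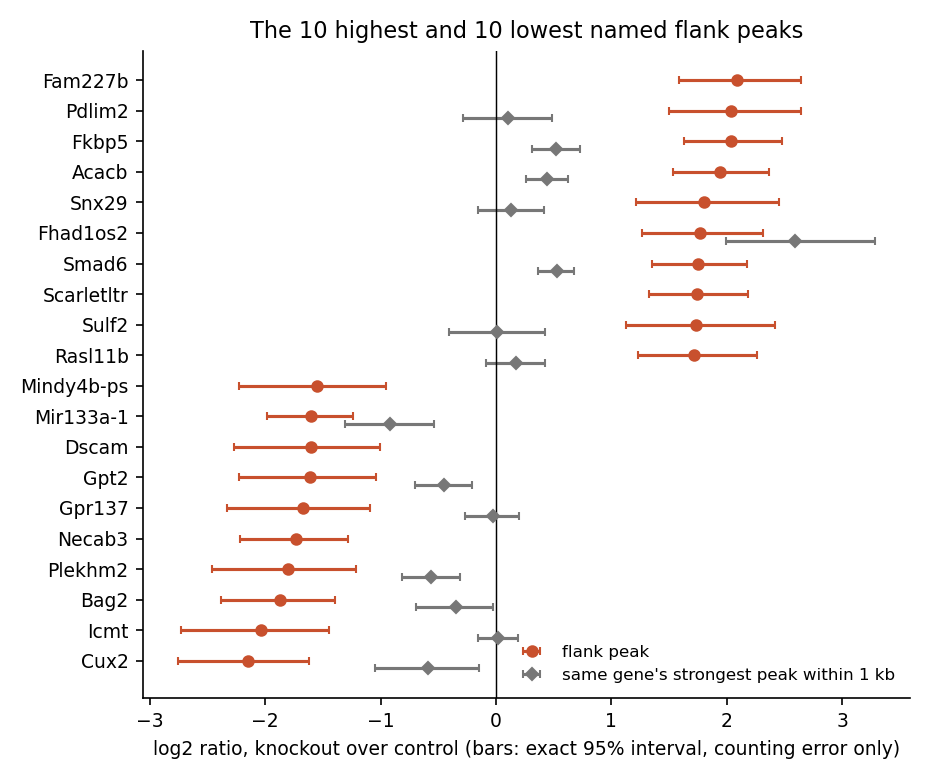
Log2 ratio (x axis, knockout over control) with exact 95% intervals for the 10 highest and 10 lowest named flank peaks (circles), and for the same gene's strongest peak within 1 kb where it has one (diamonds). Each diamond except that of Fhad1os2 lies nearer 0 than its circle, and that of Icmt lies at 0.02 against -2.04. The circles were picked for extreme ratios and the diamonds were not, so this order is largely built in.

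The 49 flank peaks past 2-fold that were called in both libraries, 24 higher and 25 lower, are less tied to calling, and some are named here after seeing their values. The highest, with 66 and 224 counts (ratio 3.55, 2.68 to 4.74), was assigned to an identifier without a symbol but lies inside the RefSeq span of Fkbp5. Leaving out predicted genes, the next with a symbol was assigned to Fkbp5 itself but lies beyond that span (67 and 178 counts, ratio 2.78, 2.08 to 3.73). Then came Ptpn14, a tyrosine phosphatase of the Hippo pathway (64 and 168, 2.74, 2.04 to 3.72), Fam20a (56 and 136, 2.54, 1.85 to 3.53) and Maff, a small Maf factor (102 and 224, 2.29, 1.81 to 2.93). Bgn, the gene of the matrix proteoglycan biglycan, had 63 and 133 counts (2.21, 1.62 to 3.03). Among the lower ones were Ky, a protein of the muscle Z-disc, with 146 and 51 counts (0.365, 0.260 to 0.505), and Elovl5, a fatty acid elongase, with 116 and 49 (0.441, 0.309 to 0.621).

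The flank peaks with the most counts among named genes differed less than 2-fold. Egfl7, an endothelial secreted factor that hosts Mir126a, had 1266 and 1533 (ratio 1.27, 1.17 to 1.36). Malat1, an abundant nuclear RNA, had 860 and 1175 (1.43, 1.31 to 1.56), and Txnip, a thioredoxin inhibitor that responds to glucose, 764 and 1134 (1.55, 1.41 to 1.70). Mir26b had 816 and 845 (1.08, 0.981 to 1.19). Sfi1 had 777 and 878 (1.18, 1.07 to 1.30). All 5 were called in both libraries and lay above 0 in log2 ratio, that of Mir26b only on the CPM and TMM scales and not on the RPM scale.

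The flank peak was then set against the promoter of its own gene. Of the 5110 flank peaks, 2804, from 2249 gene identifiers, had a peak within 1 kb of a start of the same gene, and the strongest such peak was taken. The promoter peak was the stronger of the pair in 83.3% of cases. The median difference in log2 ratio, flank minus own promoter, was -0.02 (-0.05 to 0.00). Flank ratios spread more widely, with an SD of 0.69 against 0.40. The flank peak was at least 2-fold higher relative to its own promoter in 206 pairs and at least 2-fold lower in 248.

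Flank and promoter went together only weakly. Of the 175 flank peaks with an own promoter peak that were at least 2-fold higher, the promoter was also at least 2-fold higher in 4 and at least 2-fold lower in 3, with a median log2 ratio of 0.10. Of the 225 lower ones, the promoter was lower in 4 and higher in 1, with a median of -0.12. These counts are to be set beside all 2804 pairs, where the promoter passed 2-fold either way in 82 (2.92%). Across the 2804 pairs Pearson's r was 0.19 and Spearman's rho 0.18, and both ratios shared a sign in 56.5%. These are descriptions across genes, which share both libraries and are not independent replicates. The correlation was higher where the flank peak was stronger (r = 0.30, n = 1526) and highest where it also lay beside the same transcript start (r = 0.41, n = 438). Most pairs did not lie side by side, since the median gap was 8449 bp and 706 pairs (25.2%) belonged to the same transcript. Of the 3872 flank peaks with a gene symbol, 1770 flanked the RefSeq 5′ end of the gene within 1 kb and 2102 flanked another annotated start.

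**Figure D4:**
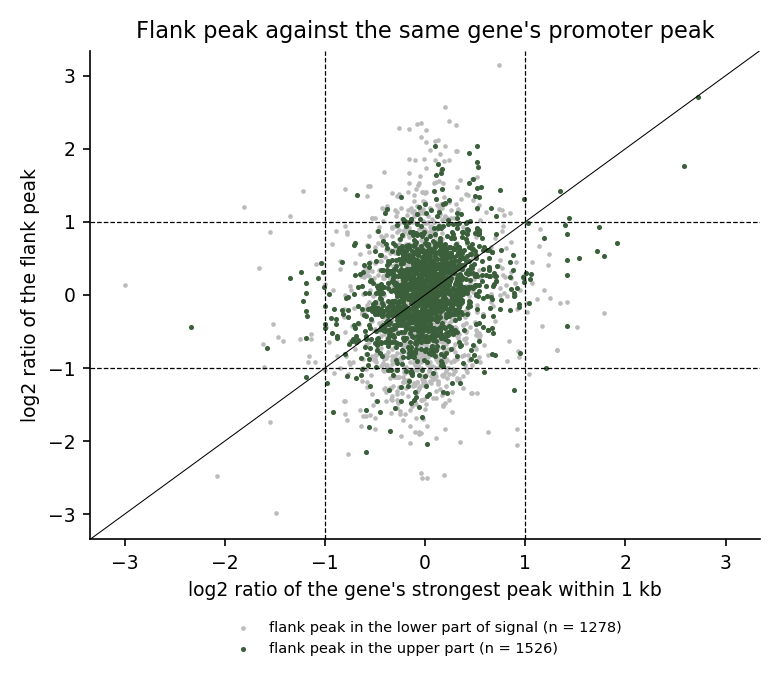
Log2 ratio of each flank peak (y axis) against that of the strongest peak within 1 kb of the same gene (x axis), for 2804 pairs, with dashed lines at 2-fold and a line of equality. Flank peaks extend past 2-fold while most promoter peaks stay inside it, and 8 pairs are past 2-fold in the same direction.

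Named flank peaks in the upper part of signal with the largest differences from a strong own promoter included Mical2, an actin-oxidising monooxygenase. Its flank peak held 45 and 135 counts (ratio 3.13, 2.22 to 4.50) and its promoter peak 398 and 411, so that the flank ratio was 2.88 times the promoter ratio (2.00 to 4.28). For Man2a2, a Golgi mannosidase, and Tiam1, an exchange factor for Rac, the flank was higher and the promoter lower. Tiam1 had 41 and 89 counts in the flank against 272 and 200 in the promoter, and Man2a2 47 and 115 against 159 and 129. The opposite order was seen at Sulf1, the paralog of Sulf2, with 82 and 44 in the flank and 184 and 286 in the promoter. Kazn (128 and 48) and Nhej1, a DNA end-joining factor (90 and 32), had lower flank peaks. Their strongest promoter peaks held 207 and 231 and 400 and 412, respectively. For Mical2, Man2a2, Tiam1, Kazn and Nhej1 the promoter peak lay more than 3 kb from the flank peak.

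Flank peaks without an own promoter peak numbered 2306, and 8.24% were at least 2-fold higher and 10.7% lower, against 6.24% and 8.02% of those with one. Among stronger peaks the shares were 3.07% (2.01 to 4.47%) and 3.42% (2.3 to 4.88%) without an own promoter peak and 3.47% (2.61 to 4.52%) and 3.21% (2.38 to 4.22%) with one. The difference between these groups was thus not detectable among stronger peaks.

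Flank peaks of 1 gene did not move as a block in general. Of 4363 gene identifiers, 3774 had 1 flank peak, 468 had 2 and the rest had 3 to 6. An upstream and a downstream flank peak, not necessarily of the same start, were present for 285 identifiers. Taking the strongest of each, upstream and downstream ratios shared a sign in 53.0%, and r was 0.11 across identifiers. Rgs3, a regulator of G protein signalling, Sfi1 and Tanc1 had 6 flank peaks each. At Rgs3 they ran from a log2 ratio of -0.50 to 1.61 with 2 at least 2-fold higher. At Sfi1 they ran from -0.50 to 0.62 and at Tanc1 from -0.46 to 0.80, and at each 4 of 6 were above 0. On the RPM scale the count for Tanc1 was 3 of 6, and with TMM factors that for Sfi1 was 5 of 6.

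Some genes with several flank peaks, chosen after seeing their values, did go 1 way. Fkbp5 encodes a co-chaperone of steroid receptors and is a known target of the glucocorticoid receptor. Its 3 flank peaks held 60 and 237, 42 and 143, and 67 and 178 counts, all more than 2-fold higher in the knockout library. Only the first lies inside the RefSeq span of the gene (28398753 to 28486149). The others start at 28515936 and 28512677, beyond that span, and are assigned to Fkbp5 by the authors' annotation. The Fkbp5 peaks within 1 kb of a start were higher too. The strongest held 332 and 456 counts (1.43, 1.24 to 1.66), another 215 and 461 (2.24, 1.9 to 2.65) and the weakest 53 and 121 (2.39, 1.71 to 3.36). Of all 8 peaks assigned to Fkbp5, 6 passed 2-fold, so the difference was not limited to the flanks. At Map4, a microtubule-associated protein gene, 0 of 5 flank peaks were above 0 (1 of 5 with TMM factors), and the strongest promoter peak held 737 and 685. At Tns1, the gene of the focal adhesion protein tensin, 5 of 5 were above 0, or 3 of 5 on the RPM scale, and none reached 2-fold. Tnnt3, the fast skeletal troponin T gene, had 76 and 32 in one flank peak and 100 and 47 in the other, with 73 and 45 in its promoter peak. The Tnnt3 promoter peak was thus lower as well (0.644, 0.434 to 0.946). Of all 4 peaks assigned to Tnnt3, however, 1 was at least 2-fold higher, so the gene as a whole did not go 1 way.

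The region from Smad6 to Lctl on chromosome 9 (64004867 to 64117257), also chosen after seeing its values, held 14 peaks, of which 13 were above 0 and 4 at least 2-fold higher, or 6 with TMM factors. The 1 peak below 0 held 46 and 41 counts. Its flank peaks went from 66 to 213 counts (Smad6), from 173 to 293 (an identifier without a symbol), from 61 to 196 (Scarletltr) and from 36 to 104 (Lctl). The median log2 ratio of the 14 was 0.91.

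Genes of the heart were examined through 17 lists, with medians on the CPM scale. The medians of the endothelial and matrix lists were 0.00 and -0.01 on the RPM scale, and the glycolysis and immediate early lists had medians of 0.03 and 0.04 with TMM factors. The other list medians given here kept their sign under both scalings, while the median of all flank peaks was 0.028 with TMM factors. Ttn, Myh7, Ddit4, Per1, Sgk1, Nr4a3 and some further peaks of the genes named fall outside the rule and were added after seeing their values. Sarcomere genes had 21 flank peaks at 13 of 27 genes, with a median log2 ratio of -0.14, 1 at least 2-fold higher and 1 lower. Over all flank peaks the median was -0.02, and the shares were 7.14% higher and 9.22% lower, which are the shares to set beside the counts of each list. Myom2, an M-band protein gene, had the higher one, with 66 and 137 counts (ratio 2.17, 1.61 to 2.95), which is under 2-fold on the RPM scale. Csrp3, the muscle LIM protein gene, had the lower one, with 122 and 54 (0.462, 0.329 to 0.642), beside a promoter peak of 129 and 123. Titin (Ttn) had 334 and 218 in one flank peak and 113 and 127 in the other. At Myh7, the slow myosin heavy chain gene, both flank peaks were lower, with 217 and 158 and with 255 and 178. The Myh7 promoter peak differed more, with 281 and 134 (0.498, 0.402 to 0.614). Both Myh7 flank peaks also count in the list of fetal and stress genes below.

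The list of calcium handling and ion channel genes had 13 flank peaks at 9 of 27 genes, 10 of them below 0, with a median of -0.30, and 0 passed 2-fold either way. Ryr2, the calcium release channel of the sarcoplasmic reticulum, had 4 flank peaks. The peak 1788 bp downstream of an annotated start held 174 and 105 counts, others held 104 and 73 and 71 and 46, and the fourth went the other way with 41 and 69. The Ryr2 promoter peak held 175 and 123. Cacna1c, the L-type calcium channel gene, had a flank peak with 83 and 128 counts (1.61, 1.21 to 2.15) and another with 75 and 54, while its promoter peak held 244 and 143 (0.612, 0.495 to 0.756). At Camk2d, a calcium-dependent kinase gene, the flank peak held 68 and 38 and the promoter peak 770 and 842.

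Of the fetal and stress genes, 4 of 15 had flank peaks, 7 in all, with a median of -0.24 and 0 past 2-fold. Nppb encodes B-type natriuretic peptide, a secreted marker of heart wall stress. Its flank peak, 2007 bp downstream of the start, held 474 and 808 counts (1.78, 1.59 to 2.0), beside a promoter peak, whose sequence is given above, of 328 and 305 (0.971, 0.828 to 1.14). The ratio of these ratios was 1.83 (1.5 to 2.23). Tnni1, the slow skeletal troponin I gene of the fetal heart, had 86 and 119 in the flank peak with the largest difference. Its promoter peak, more than 3 kb from that flank peak, held 33 and 110. The other Tnni1 flank peak held 57 and 46 (0.843, 0.559 to 1.27).

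Cardiac transcription factor genes had 8 flank peaks at 5 of 22 genes, 6 above 0 (4 on the RPM scale), with a median of 0.25. Gata4, a factor of heart development and growth, had 1 at least 2-fold higher, with 53 and 137 counts (2.70, 1.95 to 3.78), while its strongest promoter peak held 310 and 316. The other Gata4 flank peak held 146 and 185. At Mef2d the flank peak with the largest difference held 104 and 148 and the promoter peak 376 and 335.

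Metabolic genes had few flank peaks. Fatty acid oxidation genes had 5, with 0 past 2-fold. Ckmt2, the mitochondrial creatine kinase gene of muscle, had 141 and 89 in the flank and 155 and 90 in the promoter. Lpl, the lipoprotein lipase gene, had 67 and 87 against 237 and 154. Genes of glycolysis had 10 flank peaks with a median of -0.02. Hk1, a hexokinase gene, had the 1 lower peak, with 61 and 20 counts (0.343, 0.196 to 0.576) beside a promoter of 580 and 628.

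Among m6A writers, readers and erasers, 5 flank peaks lay at 3 of 20 genes, 1 at least 2-fold higher. Both flank peaks of Igf2bp2, an m6A-binding protein gene, were higher, with 15 and 43 counts (2.99, 1.63 to 5.80) and 51 and 94 (1.93, 1.36 to 2.76). Glucocorticoid-induced genes had 6 flank peaks at 4 of 16 genes, 4 of them at least 2-fold higher, with a median of 1.41, where 7.14% of all flank peaks were. Of those 4, 3 belong to Fkbp5 and 1 to Ddit4, an inhibitor of mTORC1, with 108 and 265 counts (ratio interval 2.04 to 3.24). The others were Per1 (262 and 272) and Sgk1 (32 and 16). Immediate early genes had 6 flank peaks, 3 above 0 (1 on the RPM scale and 4 with TMM factors) and 0 past 2-fold, among them Fos (324 and 284), Nr4a3 (700 and 659) and Klf4 (173 and 207).

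Markers of other cell types were sparse. The endothelial list had 10 flank peaks at 8 of 19 genes, summing to 2639 and 3008 counts, 7 above 0 (5 on the RPM scale), a median of 0.17 and 0 past 2-fold. Fibroblast genes had 2, both above 0, at Dpt (127 and 193) and Mfap5 (186 and 216). Matrix genes had 5. Postn, the gene of the fibroblast matrix protein periostin, had 37 and 74 (2.09, 1.39 to 3.19) beside a promoter peak of 58 and 39, and its flank ratio was under 2-fold on the RPM scale. The other matrix flank peaks were at Sparc (165 and 238) and at Col4a1, with 70 and 75, 119 and 115, and 105 and 74. Mural genes had 2 flank peaks and myeloid genes 1, at Csf1r (70 and 86). Cell cycle genes had 2, at Ccnd1 (213 and 176) and Ccnd2 (89 and 126). The skeletal muscle list had 3 flank peaks, all below 0, at Tnnt3 and at Myog (82 and 41), summing to 258 and 120 counts. The part of cell composition in any result was not tested.

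**Figure D5:**
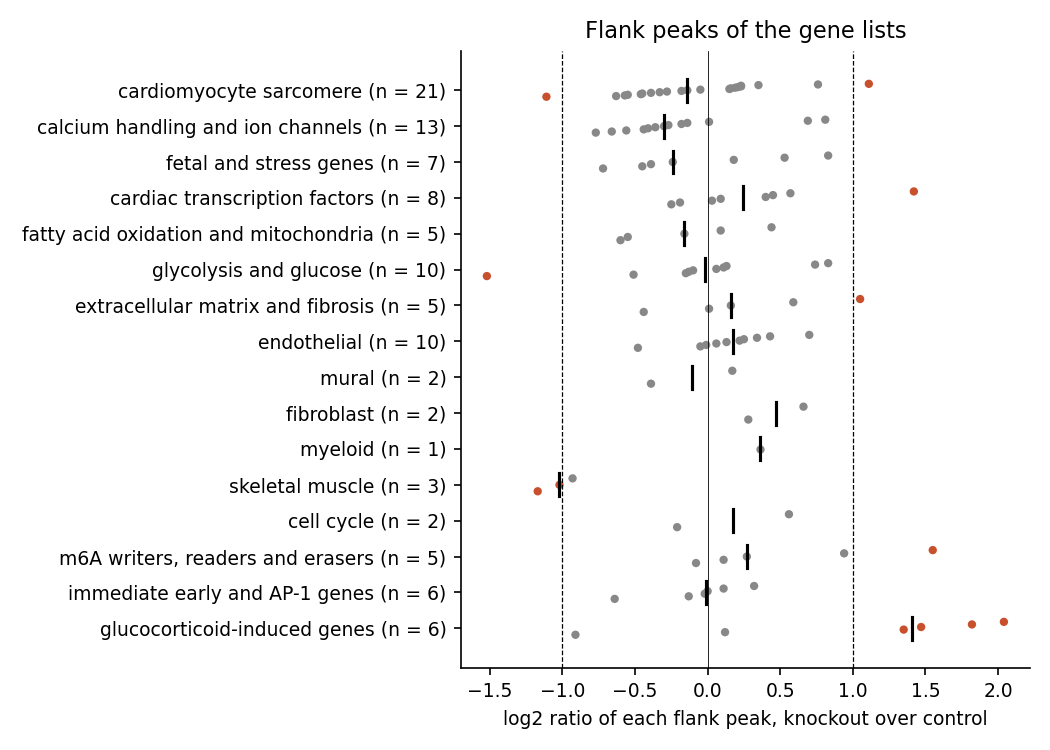
Log2 ratio of each flank peak (points, x axis) for the 16 gene lists that have any, with the median as a vertical line and dashed lines at 2-fold. Points past 2-fold, drawn in red, are few outside the glucocorticoid list, where 3 of the 4 belong to Fkbp5.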

How the data were processed

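ATAC-seq was measured in 1 control and 1 knockout heart library. BWA, MACS2 and the build GRCm38.p6 are named in the submitters' processing notes. The sources used here do not give read filters, the Tn5 shift or what was counted (reads, fragments or cuts). Per merged peak, the authors deposited raw whole-number counts. The deposited RPM values equal (count + 1) times 0.01965 (control) or 0.01822 (knockout). In all 58076 rows the authors' log2 fold change is that of their RPM values. The authors' fold enrichment, a ratio, served only as a filter.

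Here counts were scaled by their column sums to CPM. Peak classes, distances and calls are the authors', and coordinates are as deposited. Intervals are exact (Clopper-Pearson) or, for medians, from order statistics. The own promoter peak is the strongest of the same identifier within 1 kb. Symbols were matched by position to RefSeq (span overlap over union at least 0.5, both ends within 1 kb, or at least 95% inside a coding gene), for 18528 of 24480 identifiers. Named genes were the 10 highest and 10 lowest flank peaks in the upper part of flank signal (1 per gene, no predicted genes), the 5 with the most counts, the 5 highest and 5 lowest against their own promoter, up to 3 per list, and the 3 genes with the most flank peaks. The members, lists and rules were chosen with earlier results of these data known. Steps were tested on simulated data. Planned motif and base composition counts over all peaks were not run, since no genome was used here. Python 3.11.15, scipy 1.17.1, R 4.3.3 and edgeR 4.0.16 (TMM factors alone) were used.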

Additional observations from a re-analysis of the deposited data

How the results depend on the processing

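With TMM factors the medians were 0.028 for all flank peaks, 0.003 upstream and 0.044 downstream. On the authors' RPM scale they were -0.196, -0.22 and -0.179, and 227 peaks were higher. Among the 2337 peaks called in both libraries 24 were higher and 25 lower, the medians were 0.074, 0.067 and 0.078, the flank minus promoter difference was 0.073, and 2.17% of stronger peaks passed 2-fold in place of 6.62%. With 5 counts added that share was 5.44%. The 1.5-fold rule gave 882 higher, 1098 lower and 24.2%. Smaller sets gave fewer peaks: 151 higher and 238 lower with fold enrichment of at least 10 (3083 peaks), 176 and 245 at 1 to 2 kb, and 189 and 226 at 2 to 3 kb. A minimum of 50 counts, autosomes alone and, for the difference, the nearest or summed promoter peaks or 1 flank peak per gene left their results within 1.5 times or inside the interval. Of 90 named peaks, 37 were past 2-fold, and none of these changed sign with TMM factors, on the RPM scale or with 5 counts added, while 1 with TMM factors (Tnnt3), 3 on the RPM scale (Tiam1, Myom2 and Postn) and 2 with 5 counts added were under 2-fold. No paired analysis was possible because each group had 1 library.

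With 1 library per genotype, variation between animals is unknown, and intervals cover counting error only. The median flank peak allows a counting error of 0.27 on the log2 scale, 0.34 in the lower part of signal. PCR copies are not independent molecules, and the sources used here do not say whether they were removed. Most differences past 2-fold come from peaks called in 1 library. Assigned genes are the nearest annotated starts and need not be regulated by the peak.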

Other observations

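Flank peaks were scarce on the X chromosome. They made up 23 of 909 X peaks (2.53%, exact interval 1.61 to 3.77%), against 5084 of 57068 autosomal peaks (8.91%), while peaks within 1 kb made up 53.0% of X peaks. Of the 23, 3 (13.0%, 2.78 to 33.6%) were at least 2-fold higher and 0 lower, against 7.14% and 9.22% of all flank peaks, and the interval for higher peaks includes that share.

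The 2 flank peaks with the most counts had no matched symbol. One, at 98664956 to 98665259 of chromosome 2, held 3560 control and 4174 knockout counts, beside a peak within 1 kb of the same identifier with 36359 and 38248. The other, at 35305139 to 35305680 of chromosome 9, held 3301 and 3171 (ratio 1.0, 0.956 to 1.05). The 5 flank peaks with the most counts held 2.62% of flank counts in the control library and 2.9% in the other.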
